A study of Mus musculus with 4 samples.

Results

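The core microRNA (miRNA) processing machinery was examined on gene arrays of whole mouse brain with and without ADAR2, the adenosine deaminase encoded by Adarb1. It was represented by 10 genes, namely Drosha, Dgcr8, Xpo5, Dicer1, Tarbp2, Prkra, Tnrc6a, Tnrc6b, Lin28a and Lin28b, and its members were chosen by gene symbol. Each symbol matched 1 transcript cluster, the set of array probes assigned to a transcribed locus, so that 10 of 33793 clusters were taken. Brains came from adult female mice of strain 129SV, 2 wildtype and 2 Adar2-/-, with 1 array per sample. Per the study's methods, these were sibling offspring from intercrosses of heterozygotes, and mice of both genotypes were homozygous for the pre-edited Gria2 R/R allele, so the wild type is a Gria2 R/R control and not an unmodified mouse.

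An miRNA is cut from a long primary transcript in successive steps. In the nucleus the Microprocessor, made of the RNase III enzyme DROSHA and its RNA-binding partner DGCR8, releases a hairpin, which Exportin-5 carries to the cytoplasm. There DICER1, with the double-stranded RNA-binding proteins TRBP (Tarbp2) and PACT (Prkra), trims the hairpin to a duplex, and a strand of it is loaded onto an Argonaute protein. GW182 proteins of the Tnrc6 family bridge Argonaute to the deadenylases that silence the target mRNA. LIN28A and LIN28B hold back the maturation of let-7 precursors and are known for their high levels in embryonic and stem cells. ADAR enzymes bind the same kind of double-stranded hairpins, and the comparison asks whether the mRNAs of this machinery differ in level in the absence of ADAR2.

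The clusters of all 10 genes showed small differences between genotypes. On the log2 scale the knockout minus wild-type difference ranged from -0.06 for Tnrc6b to 0.275 for Lin28b, with a median of 0.03, beside a median of 0.005 over all clusters. Of the 10 differences 7 were above 0 and 3 below, beside 50.8% of all clusters above and 47.7% below. By limma 0 of 10 clusters passed an adjusted p of 0.05, which 0 of all 33793 clusters did, and 0 of 10 passed an unadjusted p of 0.05, against a background of 5.95% of all clusters, 3.64% higher and 2.31% lower in the knockout. The lowest unadjusted p, for Lin28b, was 0.0532 (adjusted p 0.834). A missed threshold does not show equality, so the 95% intervals of the differences are given as well. They reached from -0.33 to 0.56 over the 10 genes, or from 0.798-fold to 1.47-fold, and for each of the 10 genes a change of 1.5-fold in either direction lay outside the interval. This held for 82.2% of all clusters. It did not hold with fewer arrays, since 4 of the 10 intervals reached 1.5-fold when 1 array or another was left out. The farthest bounds were then 0.731 for Lin28a without knockout replicate 1, 0.730 for Lin28b and 0.722 for Tarbp2 without knockout replicate 2, and 0.60 for Tnrc6a without knockout replicate 1. The interval of Lin28b reached it whichever of the 4 arrays was left out. The intervals with all 4 arrays rest on 2 against 2 arrays and a shared estimate of the spread. With 1 array left out, 1 genotype has a single array, so the spread comes from the other genotype and that shared estimate. None of the intervals is adjusted for the number of genes.

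The targeted gene and the tissue were examined for reference. Adarb1 was at 10.50 and 10.45 in wild-type and at 9.16 and 8.96 in Adar2 knockout brain, a log2 difference of -1.415 (limma p 2.57e-05, adjusted p 0.409). Clusters of neuronal markers such as Snap25 and Rbfox3 lay between 8.68 and 13.16 and those of astrocyte markers between 8.47 and 11.09, while 4 Y-linked genes, which female mice lack, lay between 3.49 and 4.40. Markers of neighbouring tissues, of blood and of the olfactory bulb, a part of the brain, differed between arrays. The mean signal of 9 anterior pituitary clusters was 5.14 and 4.82 in wild-type and 6.09 and 5.81 in knockout replicates 1 and 2. The differences were 4.115 for Prl and 3.165 for Gh and 0.01 to 0.51 for the other 7 clusters, with a median of 0.18 over the list. The mean of 7 salivary gland clusters was 7.50 in knockout replicate 1 and 5.02 to 5.19 on the other arrays. On that array Dcpp1, Pip, Smr3a and Amy1 were at 10.2, 9.45, 8.47 and 7.70, while Aqp5 and Bhlha15 were at 6.68 and 5.66, near their values elsewhere. Dcpp2 was at 4.34 and 4.32 on both knockout arrays and at 3.63 and 3.67 in wild-type brain (limma p 0.000626). These values all lie within the range of the Y-linked genes, so the difference is not read as a change. That of 5 olfactory bulb clusters was 7.14 in knockout replicate 2 and 7.63 to 7.78 elsewhere, with Cdhr1 at 6.66 and Doc2g at 6.70 against 7.44 to 7.92, and Eomes at 6.91 against 6.93 to 7.33. Their part in the results below was not tested, and in whole tissue fewer cells of a type cannot be told apart from less RNA per cell.

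**Figure D1:**
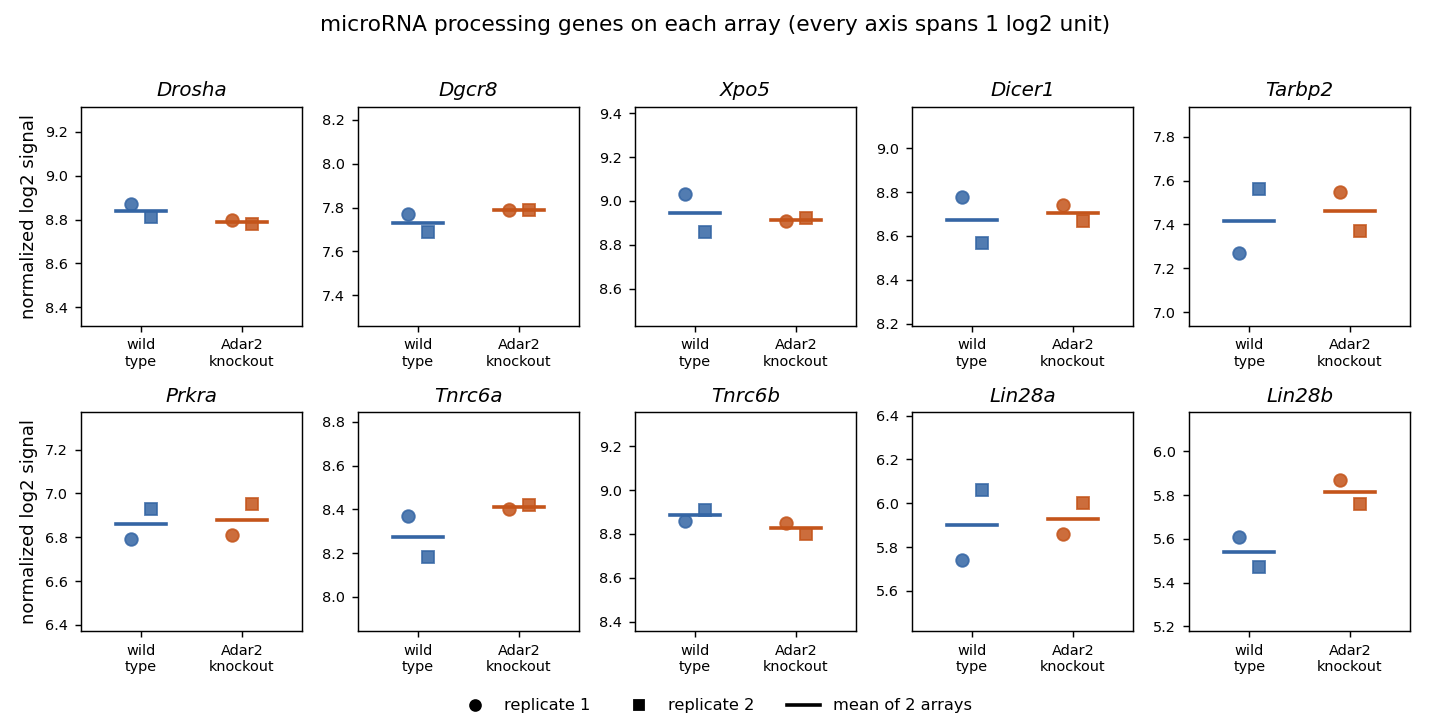
Normalized log2 signal (vertical axes, each spanning 1 log2 unit) of the 10 genes in wild-type and Adar2 knockout brain. Circles are replicate 1, squares replicate 2 and bars the mean of 2 arrays. Lin28b is the gene whose knockout arrays, at 5.87 and 5.76, stand farthest from its wild-type arrays, at 5.61 and 5.47.

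The Microprocessor genes differed little. Cluster positions here and below are those of the deposited table, whose position columns carry no build name and were matched to GRCm38 by overlap with RefSeq genes. Drosha (cluster 17310466, chromosome 15, 12824815 to 12935291, plus strand) encodes the nuclease that crops the primary transcript. Its log2 signal was 8.87 and 8.81 in wild-type and 8.80 and 8.78 in knockout brain. The knockout arrays thus lay just below the wild-type ones, 0.01 apart at the nearest, with a difference of -0.05 (SE 0.10, 95% interval -0.30 to 0.20, limma p 0.644). Dgcr8 (cluster 17328897, chromosome 16, 18253948 to 18289249, minus strand) encodes the RNA-binding subunit, which contacts the upper stem and loop side of the hairpin. Its signal was 7.77 and 7.69 in wild-type and 7.79 on both knockout arrays. The difference of 0.06 (95% interval -0.20 to 0.32, limma p 0.584) was smaller than the 0.08 between the wild-type arrays. The tail of the Dgcr8 cluster shares 825 bases with the cluster of Trmt2a, a tRNA methyltransferase gene on the opposite strand, which was at 8.41 and 8.39 in wild-type and at 8.24 and 8.14 in knockout brain (limma p 0.0945).

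Xpo5 (cluster 17338006, chromosome 17, 46202855 to 46242299, plus strand) encodes Exportin-5. Its signal was 9.03 and 8.86 in wild-type and 8.91 and 8.92 in knockout brain, so that the knockout arrays fell between the wild-type arrays. The difference was -0.03 (SE 0.11, 95% interval -0.31 to 0.25, limma p 0.799). A miRNA precursor cluster, Mir693, lies within the Xpo5 span on the same strand. It gave the values 5.22 and 5.01 in wild-type and 5.02 and 5.22 in knockout brain (difference 0.005, limma p 0.971), and the genotypes overlapped.

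Of the dicing genes none set the genotypes apart. Dicer1 (cluster 17283691, chromosome 12, 104687742 to 104751952, minus strand) encodes the cytoplasmic RNase III. Its signal was 8.78 and 8.57 in wild-type and 8.74 and 8.67 in knockout brain. The gap of 0.21 between the wild-type arrays exceeded the difference between genotypes of 0.03 (SE 0.12, 95% interval -0.27 to 0.33, limma p 0.811). Tarbp2 (cluster 17315465, chromosome 15, 102518192 to 102523676, plus strand) encodes TRBP, a DICER1 partner. It was at 7.27 and 7.56 in wild-type and at 7.55 and 7.37 in knockout brain, a difference of 0.045 (95% interval -0.31 to 0.40, limma p 0.763). Prkra (cluster 17386757, chromosome 2, 76629898 to 76648015, minus strand) encodes PACT, the paralogous partner that also activates the kinase PKR. Its signal was 6.79 and 6.93 in wild-type and 6.81 and 6.95 in knockout brain. These pairs differ by 0.02 (SE 0.12, limma p 0.869), the smallest difference among the 10 genes, and the interval was -0.27 to 0.31.

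The GW182 genes differed in opposite directions, and both 95% intervals included 0. Tnrc6a (cluster 17482828, chromosome 7, 123123885 to 123195296, plus strand) was at 8.37 and 8.18 in wild-type and at 8.40 and 8.42 in knockout brain. The knockout arrays lay above both wild-type arrays, by 0.03 from the nearer, and the difference of 0.135 (SE 0.12, 95% interval -0.15 to 0.42, limma p 0.288) was smaller than the wild-type gap of 0.19. A predicted transcript, Gm20299, lies inside the Tnrc6a span on the opposite strand, and its signal was 5.92 and 6.21 in wild-type and 6.43 and 6.27 in knockout brain (limma p 0.0898). Tnrc6b (cluster 17313169, chromosome 15, 80711313 to 80941086, plus strand) was at 8.86 and 8.91 in wild-type and at 8.85 and 8.80 in knockout brain. Its difference was -0.06 (SE 0.10, 95% interval -0.31 to 0.19, limma p 0.582), the lowest of the 10. Tnrc6c, the remaining paralog, had the same mean in both genotypes, with 9.41 and 9.40 in wild-type and 9.49 and 9.32 in knockout brain.

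The LIN28 genes gave the largest and a near-zero difference. Lin28a (cluster 17431166, chromosome 4, 134003330 to 134018841, minus strand) was at 5.74 and 6.06 in wild-type and at 5.86 and 6.0 in knockout brain. The knockout arrays fell between the wild-type arrays, and the difference was 0.03 (SE 0.14, 95% interval -0.33 to 0.39, limma p 0.842). Lin28b (cluster 17240670, chromosome 10, 45376619 to 45486395, minus strand) was at 5.61 and 5.47 in wild-type, or 5.54 ± 0.099 (SD, n = 2), and at 5.87 and 5.76 in knockout brain, or 5.82 ± 0.078 (SD, n = 2). Both knockout arrays were above both wild-type arrays, the nearest being 0.15 apart. The cluster was dim, each value lying below the median signal of its array, 6.03 to 6.09. The difference was 0.275 (SE 0.11, 95% interval -0.0053 to 0.56), which corresponds to 1.21-fold. The limma p of 0.0532 lay close to the threshold and fell on either side of it with the fit. With the replicate number as a block it was 0.0481, with an intensity trend 0.0732 (SE 0.13) and after quantile normalization 0.104. It was 0.0472 when clusters with probes that can cross-hybridize were left out, none of which is a member. Without wild type replicate 2 the difference was 0.205 (limma p 0.177) and without wild type replicate 1 it was 0.345 (limma p 0.0626). An exact permutation test of 2 against 2 arrays cannot give a two-sided p below 0.333, the value found for Lin28b. Of all clusters, 10.7% had a larger difference in either direction. Of the 30 probes of this cluster, 18 are assigned to the listed Lin28b mRNA.

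Lin28b lies on the chromosome that carries the targeted gene, with 31.8 Mb between its cluster and that of Adarb1. A difference carried by that chromosome and one that goes with the loss of ADAR2 cannot be told apart here. Over 4 arrays, the genes whose deviations from their own mean were most like those of Lin28b were Olfr1351, 2410018M08Rik and Cd5. The root mean square distance was 0.0109 to 0.0122 log2 units among 22700 genes with a single cluster, and 160 genes lay within 0.05. Olfr1351 was at 3.53 to 3.91, within the range of the Y-linked genes, so that its likeness is not read as a change.

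**Figure D2:**
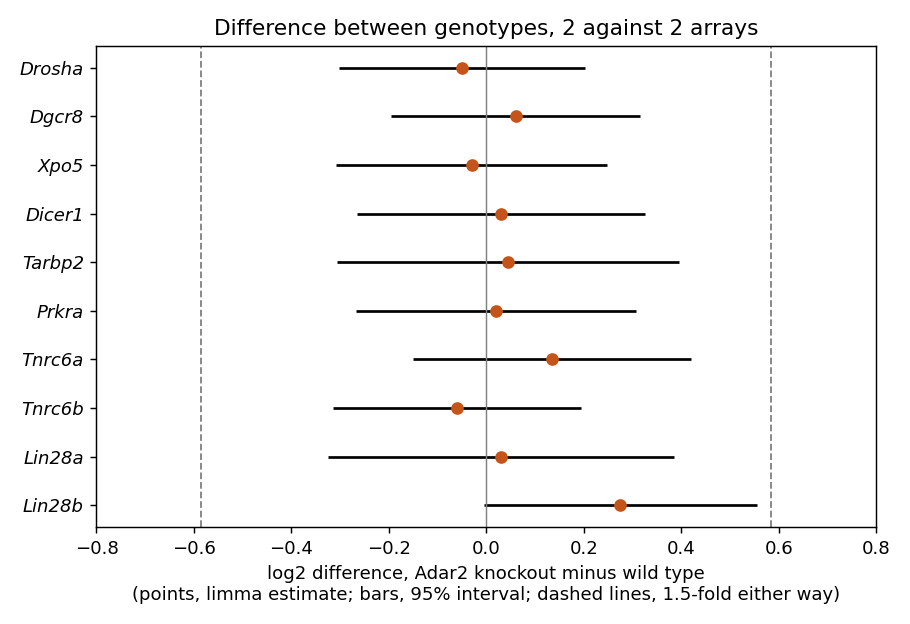
Log2 difference between Adar2 knockout and wild type (horizontal axis) for each of the 10 genes, with limma estimates as points and 95% intervals as bars. All 10 intervals include 0 and end inside the dashed lines at 1.5-fold, the widest reach being that of Lin28b to 0.56. With 1 array left out, which is not drawn here, the intervals of Lin28a, Lin28b, Tarbp2 and Tnrc6a reached past these lines.

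LIN28 proteins recognise let-7 precursors through a GGAG motif in the terminal loop, which their zinc knuckles bind. The mature let-7 miRNAs whose making they hold back are shown because they share the seed, bases 2 to 8, by which targets are recognised. The mature sequences are from RefSeq (GRCm38.p6), written 5′ to 3′ with the seed in capitals. All 9 mature 5p strands of the family in that table have the same seed.
let-7a-5p, chr13:48538239-48538260, minus strand: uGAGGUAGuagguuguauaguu
let-7d-5p, chr13:48536078-48536099, minus strand: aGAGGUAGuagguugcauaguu
miR-98-5p, chrX:151913229-151913250, plus strand: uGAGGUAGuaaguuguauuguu

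The loop side differs more. The 20 bases just before the 3p strand were searched for GGAG on the transcribed strand in all let-7 and Mir98 hairpins of the same table. The motif was found in 9 of 12 loci, while 9.83% of 692 mouse hairpins with a full window of this length hold it. A match is a description of the letters and no measured binding site. The first 3 windows below hold the motif, in capitals, and the other 3 are the ones without it.
Mirlet7a-1, chr13:48538210-48538229, minus strand: cacccaccacugGGAGauaa
Mirlet7d, chr13:48536046-48536065, minus strand: uuuugcccacaaGGAGuuaa
Mirlet7g, chr9:106178882-106178901, plus strand: accacccgguacaGGAGaua
Mirlet7b, chr15:85707359-85707378, plus strand: uguugccccuccgaagauaa
Mirlet7c-2, chr15:85706644-85706663, plus strand: ucugccccgcucugcgguaa
Mir98, chrX:151913267-151913286, plus strand: aggccccaguaagaagauaa

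Precursor loci of this family were covered by 14 clusters, whose probes see the primary transcript and the hairpin region and not the mature miRNA as such. Signals of 6 of the 14 clusters stayed at or below 4.40 on all arrays, the highest value of the Y-linked genes, and their differences are not read as changes. These are both clusters of Mirlet7f-1, those of Mirlet7f-2, Mirlet7g and Mir98 and 1 of 2 for Mirlet7e. Of the other 8 clusters, 6 were of loci with GGAG. Those of Mirlet7a-1, Mirlet7a-2, Mirlet7i and the brighter one of Mirlet7e had differences of 0.12, 0.06, -0.085 and -0.12. That of Mirlet7b, without the motif, was at 0.17. Mirlet7d was at 4.72 and 4.68 in wild-type and at 4.73 and 4.03 in knockout brain. Mirlet7c-1 was at 4.25 and 4.56 in wild-type and at 3.87 and 4.47 in knockout brain. Mirlet7d and Mirlet7c-1 thus have arrays within the range of the Y-linked genes, and no size of their differences is given. An unadjusted limma p below 0.05 was reached by 2 of the 14 clusters. Mirlet7c-2 was at 5.11 and 5.64 in wild-type and at 3.64 and 4.11 in knockout brain (limma p 0.000735, adjusted p 0.829), so that both knockout arrays lay within the range of the Y-linked genes and no size of the difference is given. The other was a Mirlet7f-1 cluster (limma p 0.0287) among the 6 dim ones. Both have probes that can cross-hybridize. Over all 588 clusters with a Mir symbol, 8.67% passed the unadjusted p, 29 higher and 22 lower in the knockout.

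The spread within genotypes was compared with the difference between them. In 8 of the 10 genes the wild-type arrays differed from each other by more than the genotype means did, the exceptions being Lin28b and Tnrc6b. The share of all clusters that do so was not taken, so this count is not read as particular to these genes. The wild-type gap exceeded the knockout gap in 8 genes and equalled it in 2, Prkra and Tnrc6b, whereas it exceeded it in 47.7% of all clusters. Which wild-type array was higher varied, with replicate 1 above replicate 2 in 6 genes and below it in 4. The groups did not overlap in 5 of 10 genes, 3 higher (Lin28b, Tnrc6a, Dgcr8) and 2 lower (Drosha, Tnrc6b), beside 34.1% of all clusters. Apart from Lin28b and Tnrc6a, the other 8 genes differed by 0.02 to 0.06 in size, below the median size of 0.10 over all clusters. Given each gene's error, a difference of 0.25 to 0.36 would have been needed for an unadjusted p of 0.05.

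**Figure D3:**
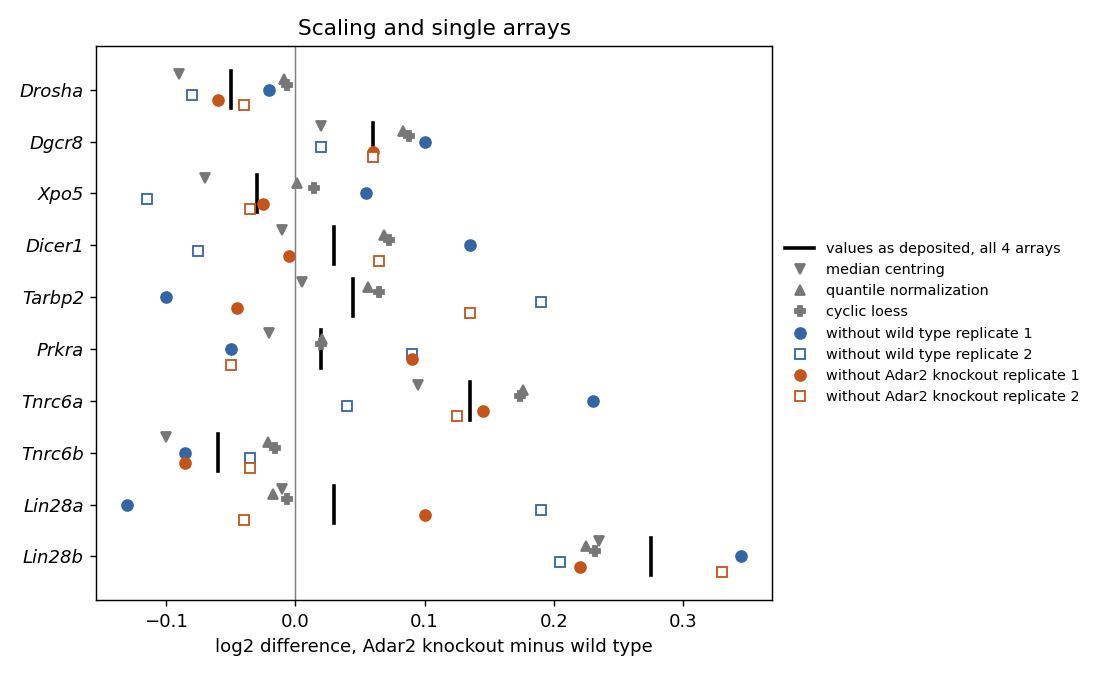
Log2 difference between Adar2 knockout and wild type (horizontal axis) for each gene with the deposited values (black bars), after 3 other scalings (grey) and without each array in turn (blue where a wild-type and orange where a knockout array was left out). Lin28b, from 0.205 to 0.345, has the highest values, and among the other genes Tnrc6a reaches farthest, at 0.23 without wild type replicate 1.

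The direction of the smallest differences depended on the scaling. Median centring, which moved the median of all clusters to -0.035, turned Dicer1, Lin28a and Prkra below 0. Quantile normalization and cyclic loess turned Lin28a below and Xpo5 above 0. Dgcr8, Tnrc6a and Lin28b stayed above 0, and Drosha and Tnrc6b below it, in the 3 scalings and without any single array.

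Partners of the core machinery were then counted by role, from 5 lists with 83 clusters of 76 genes. The unadjusted p of 0.05 was passed by 2 clusters, or 2.41%, both lower in the knockout, beside 2.31% of all clusters for that direction, and 0 passed the adjusted p. Of the 83 clusters 32 were higher, 49 lower and 2 equal, with a median of -0.025. Thus 59.0% were lower, beside 47.7% of all clusters and 57.3% of the 16896 clusters above the median signal, to which 80 of the 83 belong and whose median was also -0.025.

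The list of Microprocessor cofactors was not sorted by whether a gene helps or hinders processing. Of its 18 clusters 1 passed the unadjusted p, Ilf2, which encodes a partner of the double-stranded RNA-binding protein NF90. Its signal was 10.14 on both wild-type arrays and 9.75 and 9.94 in knockout brain, a difference of -0.295 (SE 0.12, limma p 0.0442, adjusted p 0.834). Without knockout replicate 1 it was -0.20 (limma p 0.139) and without knockout replicate 2 it was -0.39 (limma p 0.0314). Without either wild-type array it stayed at -0.295 with a limma p of 0.133. The p was also above the threshold after quantile normalization (0.0624), after cyclic loess (0.0805) and with the replicate number as a block (0.0598). Of 6 clusters of nuclear export genes 0 passed, with differences from -0.055 to 0.03.

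Among 27 clusters of Argonaute and silencing complex genes 0 passed. The Argonaute genes are listed on the array by their older symbols. Eif2c2, which encodes the slicing Argonaute AGO2, was at 9.94 and 9.89 in wild-type and at 9.95 and 9.79 in knockout brain (difference -0.045, 95% interval -0.32 to 0.23). Eif2c1 was at 8.60 and 8.53 in wild-type and at 8.30 and 8.52 in knockout brain (difference -0.155, limma p 0.251). Eif2c3, at 8.88 and 8.68 against 8.87 and 8.92, and Eif2c4, at 7.04 and 6.81 against 6.62 and 6.86, had differences of 0.115 and -0.185 (limma p 0.367 and 0.237). The genotypes overlapped for Eif2c2, Eif2c3 and Eif2c4 and lay 0.01 apart for Eif2c1. Snd1 encodes Tudor-SN, which degrades inosine-containing precursors. It was at 9.29 and 9.23 in wild-type and at 9.21 and 9.22 in knockout brain (difference -0.045, limma p 0.676).

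Of 22 clusters of silencing effectors, the deadenylation and decapping factors, 1 passed the unadjusted p, Cnot7, a catalytic deadenylase of the CCR4-NOT complex. Its signal was 8.75 and 8.51 in wild-type and 8.26 and 8.27 in knockout brain, a difference of -0.365 (SE 0.12, 95% interval -0.67 to -0.061, limma p 0.0261, adjusted p 0.834). Both knockout arrays lay at least 0.24 below the wild-type arrays, which themselves differed by 0.24. Without wild type replicate 1 the difference was -0.245 (limma p 0.0950) and without wild type replicate 2 it was -0.485 (limma p 0.0194). Without knockout replicate 1 or 2 it was -0.36 or -0.37, with a limma p of 0.112 or 0.106.

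Of 10 clusters of tailing and decay genes 0 passed. They include the terminal uridylyltransferases that LIN28 proteins recruit to let-7 precursors. Zcchc11 (TUT4) was at 8.18 and 8.22 in wild-type and at 8.12 and 8.51 in knockout brain (difference 0.115, limma p 0.482), and Zcchc6 (TUT7) at 8.07 and 7.95 against 7.78 and 7.89 (difference -0.175, limma p 0.170). Dis3l2, the exonuclease that removes uridylated let-7 precursors, was at 9.05 on both wild-type arrays and at 8.97 and 9.0 in knockout brain (difference -0.065, limma p 0.545). These 3 genes were singled out for their link to LIN28 after their values were seen.

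**Figure D4:**
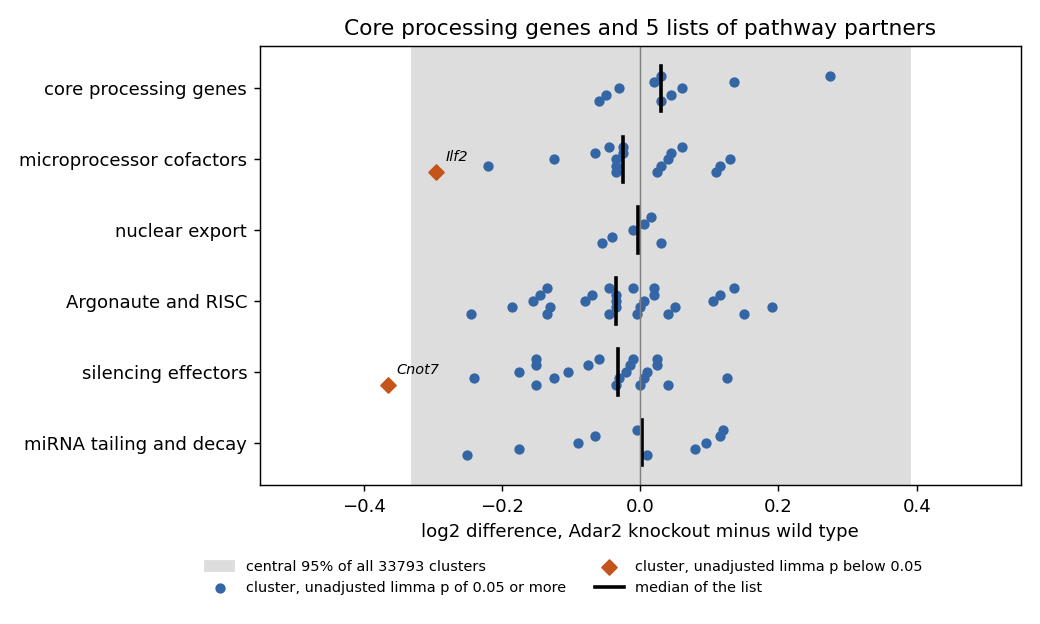
Log2 difference between Adar2 knockout and wild type (horizontal axis) of the clusters of the 10 core genes and of 5 lists of partners, with list medians as black bars and the central 95% of all 33793 clusters, -0.33 to 0.39, shaded. Diamonds mark Ilf2 and Cnot7, the 2 clusters with an unadjusted limma p below 0.05.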

How the data were processed

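RNA of 4 whole-brain samples was amplified with the Ambion WT Expression Kit for hybridization to whole-transcript mouse arrays of Affymetrix. The authors deposited normalized log2 signals to 2 decimals for 33793 transcript clusters. The submitters' processing notes name Affymetrix Expression Console and RMA, and the position columns carry no build name. Descriptions of 10701 clusters cite an NCBIM37 position. Of the 4021 of them with a RefSeq symbol, the position columns overlapped the RefSeq GRCm38.p6 span in 98.7% and the NCBIM37 position in 13.3%. The clusters of all 10 genes overlapped the RefSeq GRCm38.p6 span of their symbol, and all 10 were of the class without cross-hybridizing probes. The table has no detection calls, and the signals of 4 Y-linked genes served as a rough guide to background, since background can differ between probes. The number of arrays limits the precision. The deposited means, ratios, fold changes and p-values of the authors' own comparisons were not used.

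Differences were tested with limma 3.58.1 in R 4.3.3 (two-sided moderated test of lmFit and eBayes, genotype alone in the model, Benjamini-Hochberg over all clusters), with no filter. The prior SD was 0.125 with 3.79 degrees of freedom. p-values weigh the difference against the spread between 2 samples per genotype, moderated by this prior. The prior carried most of the total of 5.79 degrees of freedom. With 1 array left out, the spread comes from the other genotype and the prior. All members are named, with Adarb1, partners past an unadjusted p of 0.05, Argonaute genes, Tnrc6c, Snd1, clusters that overlap a member, and the 3 genes nearest to the member with the largest difference. The 1 unnamed cluster that overlaps Lin28a is not described. The members and lists were chosen with earlier results of these data known. The let-7 motif search was chosen after the data were seen. The fits were tested on simulated data. Alternatives were 3 scalings, a filter on dim clusters, trended and robust eBayes, the replicate number as a block, each array left out, and cross-hybridizing clusters left out. Tables and plots used Python 3.11.15, pandas 2.3.3 and matplotlib 3.10.9.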

Additional observations from a re-analysis of the deposited data

How the results depend on the processing

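In each alternative run for it, Adarb1 was lower in the knockout and passed an unadjusted p of 0.05, while 0 clusters passed the adjusted p in any. For the 10 genes, 91 of 108 values under alternatives kept their direction and their side of an unadjusted p of 0.05, 16 changed sign and 1 passed, not counting the fit without cross-hybridizing clusters. The filter on dim clusters kept 8 of the 10 genes and removed Lin28a and Lin28b, which it therefore did not test. The number of members past it was 1 with the replicate number as a block and 1 without clusters that can cross-hybridize, which is Lin28b in both. After median centring the differences were -0.01 for Dicer1, -0.01 for Lin28a and -0.02 for Prkra. They were -0.0175 for Lin28a and 0.0013 for Xpo5 after quantile normalization, and -0.0067 and 0.015 after cyclic loess. With single arrays left out they ranged from -0.075 to 0.135 for Dicer1, -0.13 to 0.19 for Lin28a, -0.05 to 0.09 for Prkra, -0.10 to 0.19 for Tarbp2 and -0.115 to 0.055 for Xpo5. Of all clusters, 989 passed the unadjusted p among those above the median signal, since fewer were tested, and 1221 to 1801 did with single arrays left out, the lowest without wild type replicate 1. The split of the 2009 clusters that passed was 1230 higher and 779 lower, and 801 and 1229 after median centring, 896 and 944 after quantile normalization and 924 and 915 after cyclic loess. Of the partners, 4 passed after median centring, 1 after quantile normalization, 1 after cyclic loess, 5 with an intensity trend, 1 with the replicate number as a block and 0 to 1 with single arrays left out, beside 2 in the reported fit. Neither Cnot7 nor Ilf2 passed in all of these. Deviations of same-numbered arrays from their group means correlated at r = 0.0516 across clusters, so the replicate numbers were not taken to pair the arrays, and the block took the members' count from 0 to 1. The causes were not tested.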
